A study of Mus musculus with 8 samples.

Results

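The nuclear genes that transcribe and copy mitochondrial DNA (mtDNA) were followed in mouse embryonic fibroblasts (MEFs) exposed to RHPS4, a positively charged small molecule that binds G-quadruplexes, the folded structures of guanine-rich nucleic acid. The members are a list of names, 10 genes of the 24460 in the deposited counts, drawn up with earlier results of these data known, namely Polrmt, Tfam, Tfb1m, Tfb2m, Tefm, Polg, Polg2, Ssbp1, Top1mt and Mgme1. All 10 had enough counts to be tested, among 14296 genes tested. Total RNA of wild type MEFs grown with 0 µM (3 libraries), 2 µM (3 libraries) or 10 µM RHPS4 (2 libraries) was sequenced after depletion of nuclear ribosomal RNA. The labels do not say whether the libraries of a dose came from separate cultures, so the p-values measure only the spread between these libraries, which may be technical. The labels do not tie a treatment time to these libraries and give the MEFs by genotype only.

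The mammalian mitochondrial genome is a small circle that relies on nuclear genes for its expression and its copying. A single-subunit RNA polymerase, POLRMT, is recruited to the mtDNA promoters by TFAM, which also bends and packages mtDNA into nucleoids, and melts the promoter with TFB2M. TEFM then joins the polymerase and keeps it moving. Replication is carried out by DNA polymerase gamma, made of a catalytic subunit and an accessory subunit, on a template kept single-stranded by SSBP1, while topoisomerase and nuclease activities resolve the twisted and flapped ends. POLRMT also makes the RNA primers for replication, so that both processes share it.

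Library totals ran from 10455965 to 26688121 counts, and levels are given as CPM, counts per 1000000 of the library size after TMM scaling. At these totals 3 counts correspond to 0.112 to 0.287 CPM, a floor that covers counting error only, because PCR copies are not independent molecules. The least abundant members held 64 to 194 counts per library (Tfb1m, Tfb2m and Polg2) and the most abundant, Polg, 802 to 1912. The fibroblast markers Col1a1, Col1a2, Col3a1, Vim, Thy1, Pdgfra and Pdgfrb were all present, summing to 8610 to 9400 CPM at 0 µM, 8060 to 9020 CPM at 2 µM and 7760 to 8270 CPM at 10 µM, although Thy1 was low at 5.1 to 7.77 CPM. The 8 markers of other cell types summed to 4.91 to 5.44 CPM at 0 µM, 4.92 to 6.51 CPM at 2 µM and 7.07 to 7.11 CPM at 10 µM, and the muscle regulators Myod1 and Myog were at 0 to 0.503 CPM. The part of these other cell types in the results was not tested. The smallest 0 µM library, replicate 1, stood apart from the other two of its dose, with a chi-square of 15.4 and 20.2 per degree of freedom against them, compared with 3.23 between that pair, and it held the highest value of its dose for 8 of the 10 members. In bulk RNA, fewer cells that make an mRNA and less of that mRNA per cell cannot be told apart.

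While the mRNAs transcribed from mtDNA fell, the mRNAs of most of the 10 members stayed close to their untreated level. The summed level of the 13 mtDNA mRNAs was 14120 ± 468 CPM (SD, n = 3) at 0 µM, 7494 ± 810 CPM (n = 3) at 2 µM and 4062 ± 790 CPM (n = 2) at 10 µM, which is 53.1% and 28.8% of the untreated mean. Of the 11 that were tested, 7 were lower at 2 µM and 11 at 10 µM at an adjusted p under 0.05 (edgeR's quasi-likelihood test, with Benjamini-Hochberg adjustment over all genes tested), the threshold for calling a gene higher or lower throughout. In contrast, the means of the 10 members were between 94.0% and 120.0% of the untreated mean at 2 µM and between 81.8% and 138.0% at 10 µM.

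At 2 µM no member passed the test against 0 µM (0 of 10, against 4.16% of all genes tested, 1.51% higher and 2.65% lower). By the unadjusted p alone, 1 of 10 was under 0.05 (Polg), a count whose share over all genes was not computed. DESeq2 also called 0 members at an adjusted p under 0.05. No member was a differentially expressed gene (DEG) by the study's thresholds, which ask for a change of more than 1.5-fold with an adjusted p below 0.01 and were met by 0.497% of all genes. In the main fit the estimates of 9 members were above 0, against 48.2% of all genes. The median log2 fold change of the 10 members was 0.16, against -0.01 for all genes. The count of 9 was the same under each of the scalings tried, of which library totals moved the median of all genes by 0.08. The share of all genes above 0 was not computed for the other scalings. The libraries of the 2 doses did not overlap for 2 members (Polg and Top1mt), compared with 25.7% of all genes. All 10 intervals (95%) lay within a 1.5-fold change in either direction, as did 64.4% of those of all genes, and the furthest bound was a 1.459-fold increase (Ssbp1). Leaving out 0 µM replicate 1 brought 2 members past the test, Polg at a log2 fold change of 0.30 (adjusted p = 0.0226) and Mgme1 at 0.31 (adjusted p = 0.0382), both higher at 2 µM.

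At 10 µM, 1 of 10 members passed the test against 0 µM, Tefm, which was higher, where 13.9% of all genes passed (6.81% higher and 7.11% lower). None was a DEG, against 3.09% of all genes. The 2 sets of libraries did not overlap for 3 members (Tefm, Tfb2m and Polg2), against 42.9% of all genes. The median size of the log2 fold change was 0.085 in the members and 0.206 in all genes tested. The intervals of 8 members stayed within a 1.5-fold change, the exceptions being Tefm and Tfb2m, compared with 55.4% over all genes. Of the estimates, 6 of 10 were above 0, against 52.1% of all genes, or 9 of 10 with library totals alone, a scaling that moved the median of all genes by 0.21.

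Among the genes of transcription, Polrmt (chr10:79736123-79746581, minus strand, GRCm38), the polymerase itself, varied least. Its level was 30.5, 30.1 and 29.5 CPM at 0 µM, 29.6, 28.1 and 27.0 CPM at 2 µM, and 29.9 and 29.2 CPM at 10 µM. The groups overlapped at both doses. The log2 fold change was -0.09 at 2 µM (SE 0.0757, 95% interval -0.26 to 0.08) and -0.02 at 10 µM (SE 0.0838, interval -0.20 to 0.16), so that the interval at 10 µM spanned a small fall and a small gain.

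Tfam (chr10:71225464-71238280, minus strand), the packaging and initiation factor, was measured at 61.3, 46.5 and 51.6 CPM at 0 µM, 59.6, 55.9 and 55.5 CPM at 2 µM and 53.1 and 57.1 CPM at 10 µM. Its untreated libraries were spread more widely than its treated ones and enclosed the 5 treated values. The log2 fold changes were 0.11 (SE 0.0971, interval -0.10 to 0.32) at 2 µM and 0.06 (SE 0.108, interval -0.18 to 0.30) at 10 µM.

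Tfb2m (chr1:179528055-179546267, minus strand), which helps the polymerase to open the promoter, had the levels 7.87, 8.56 and 7.69 CPM at 0 µM, 7.21, 7.89 and 10.4 CPM at 2 µM and 6.40 and 6.75 CPM at 10 µM. Both 10 µM libraries were below all others. The log2 fold change at 10 µM was -0.29 (SE 0.164, interval -0.65 to 0.07, adjusted p = 0.262), which did not pass the test. The fold change is uncertain, resting on 94 to 105 counts per library at 10 µM. The level may also be too low, since 29.6% of the 75-base stretches of its transcripts recur in the transcript of Gm1818. Fragments that lie wholly within those stretches cannot be placed uniquely. Whether this bears on the fold change was not tested.

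Tefm (chr11:80136678-80142175, minus strand), the elongation factor, was the member that passed the test at 10 µM. Its levels were 25.0, 18.2 and 20.2 CPM at 0 µM, 28.1, 22.9 and 23.7 CPM at 2 µM and 26.3 and 31.8 CPM at 10 µM. The 10 µM libraries were above all the untreated ones, whereas the 2 µM libraries overlapped with both. Tefm rose by 39.2% at 10 µM (log2 fold change 0.48, SE 0.142, interval 0.17 to 0.79, adjusted p = 0.0458), while at 2 µM the estimate of 0.25 (SE 0.13, interval -0.03 to 0.54, adjusted p = 0.293) did not pass. None of its exon bases overlap another gene and none of its 75-base stretches recur in another gene's transcripts. The call was close to its threshold. It passed in 5 of 16 alternatives (adjusted p from 0.00444 to 0.356), and was lost with RLE scaling (0.0529), DESeq2 (0.0518), no filter (0.0505), only the 2 doses in the fit (0.0737) and the replicate number as a block (0.0937). It was also lost without 0 µM replicate 2 (0.173) or 3 (0.126), 2 µM replicate 2 (0.0719) or 3 (0.0648), or 10 µM replicate 1 (0.0578) or 2 (0.356), with log2 fold changes of 0.31 to 0.58.

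Tfb1m (chr17:3519256-3557781, minus strand) is related to Tfb2m but encodes the dimethyltransferase of the small mitochondrial ribosomal RNA. Its levels of 8.29, 5.98 and 6.74 CPM at 0 µM, 8.62, 6.92 and 6.82 CPM at 2 µM and 7.68 and 6.96 CPM at 10 µM overlapped throughout. Its log2 fold changes were 0.11 (SE 0.149) and 0.10 (SE 0.164). In 10.1% of its exon bases it overlaps Tiam2 on the other strand, and whether the authors' counting used strand is not given in the sources used here.

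Among the genes of replication, Polg (chr7:79446231-79466362, minus strand), the catalytic subunit of DNA polymerase gamma, differed between the treated doses. It was at 83.1, 75.4 and 75.8 CPM at 0 µM, 91.1, 94.9 and 92.5 CPM at 2 µM, and 68.1 and 78.1 CPM at 10 µM. The 2 µM libraries were above all the others. Against 0 µM the log2 fold change was 0.25 at 2 µM (SE 0.075, interval 0.09 to 0.42, adjusted p = 0.0857) and -0.09 at 10 µM (SE 0.0843, interval -0.28 to 0.09, adjusted p = 0.5), neither of which passed.

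Between the treated doses Polg fell by 0.34 on the log2 scale from 2 to 10 µM (SE 0.0847, interval -0.53 to -0.16, adjusted p = 0.0138), or by 21.2%. This call was kept in 13 of 16 alternatives and was lost with library totals alone (-0.21, adjusted p = 0.0857), without 2 µM replicate 2 (0.0529) and without 10 µM replicate 1 (0.0737). In 8.49% of its exon bases (665 bases) Polg overlaps Fanci, a gene of DNA crosslink repair on the other strand. Fanci was at 36.6 to 38.3 CPM at 0 µM, 42.8 to 46.3 CPM at 2 µM and 46.4 to 49.97 CPM at 10 µM. From 2 to 10 µM its log2 fold change was 0.10 (SE 0.081), of opposite sign to that of Polg, whereas at 2 µM against 0 µM it was 0.25 (SE 0.0733, adjusted p = 0.0798). At 10 µM against 0 µM Fanci rose by 0.35 on the log2 scale (SE 0.0807, adjusted p = 0.0151), where Polg had an estimate of -0.09, and the part of Fanci in the Polg values was not tested.

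Polg2 (chr11:106768253-106779537, minus strand) encodes the accessory subunit that makes the polymerase processive. Its levels were 6.63, 7.12 and 6.93 CPM at 0 µM, 8.18, 7.89 and 7.001 CPM at 2 µM and 7.98 and 7.83 CPM at 10 µM. At 10 µM both libraries were above the 3 untreated ones, with a log2 fold change of 0.19 (SE 0.125, interval -0.08 to 0.46) that did not pass the test (adjusted p = 0.341). Polg2 overlaps Milr1 on the other strand in 4.65% of its exon bases. Milr1 had 5 to 22 counts per library, and its part in the Polg2 values was not tested.

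Ssbp1 (chr6:40471352-40484700, plus strand), the single-stranded DNA-binding protein of mitochondria, had 33.8, 31.9 and 29.1 CPM at 0 µM, 43.4, 36.9 and 33.8 CPM at 2 µM, and 37.8 and 27.9 CPM at 10 µM. The pair of 10 µM libraries lay on either side of the untreated ones. The log2 fold changes were 0.27 at 2 µM (SE 0.126, interval -0.01 to 0.54, adjusted p = 0.246) and 0.07 at 10 µM (SE 0.14, interval -0.24 to 0.38).

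Mgme1 (chr2:144270663-144281227, plus strand), an exonuclease that trims the ends of newly made mtDNA strands, had 24.4, 20.7 and 19.3 CPM at 0 µM, 23.6, 24.6 and 25.4 CPM at 2 µM and 20.2 and 20.0 CPM at 10 µM. The 10 µM libraries lay close together and were below all 3 at 2 µM. The log2 fold changes were 0.21 at 2 µM (SE 0.0972, adjusted p = 0.236) and -0.08 at 10 µM (SE 0.109). It overlaps Snx5 on the other strand in 6.15% of its exon bases. Snx5, with 3162 to 7595 counts per library against 235 to 486 for Mgme1, had log2 fold changes of 0.20 at 2 µM (SE 0.0751, adjusted p = 0.155), 0.05 at 10 µM (SE 0.0838) and -0.15 from 2 to 10 µM (SE 0.0842), and its part in the Mgme1 values was not tested.

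Top1mt (chr15:75657035-75678800, minus strand), the mitochondrial topoisomerase that relieves supercoils, had 16.4, 15.5 and 15.0 CPM at 0 µM, 17.2, 17.7 and 17.8 CPM at 2 µM and 16.0 and 16.7 CPM at 10 µM. At 2 µM it was above both other doses in each library, with a log2 fold change against 0 µM of 0.18 (SE 0.0849, interval -0.01 to 0.36, adjusted p = 0.256), and at 10 µM the estimate was 0.07 (SE 0.0945). Top1mt overlaps Gm15945 on the other strand in 4.99% of its exon bases. Gm15945 is not among the genes counted, and its part in the Top1mt values was not tested.

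From 2 to 10 µM, 1 of 10 members passed the test, Polg, which was lower, compared with 23.4% of all genes (11.5% higher and 11.9% lower). None was a DEG, against 5.51% of all genes. The libraries of these doses did not overlap for 4 members (Polg, Tfb2m, Top1mt and Mgme1), each of them lower at 10 µM, against 51.8% of all genes. Tfb2m (log2 fold change -0.39, SE 0.167, adjusted p = 0.111) and Mgme1 (-0.29, SE 0.11, adjusted p = 0.0787) did not pass. Without 0 µM replicate 1, from which the shared estimate of spread also draws, Mgme1 passed as well (-0.32, adjusted p = 0.0191), for 2 members in all, while without 2 µM replicate 2 or 10 µM replicate 1 the count was 0.

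**Figure D1:**
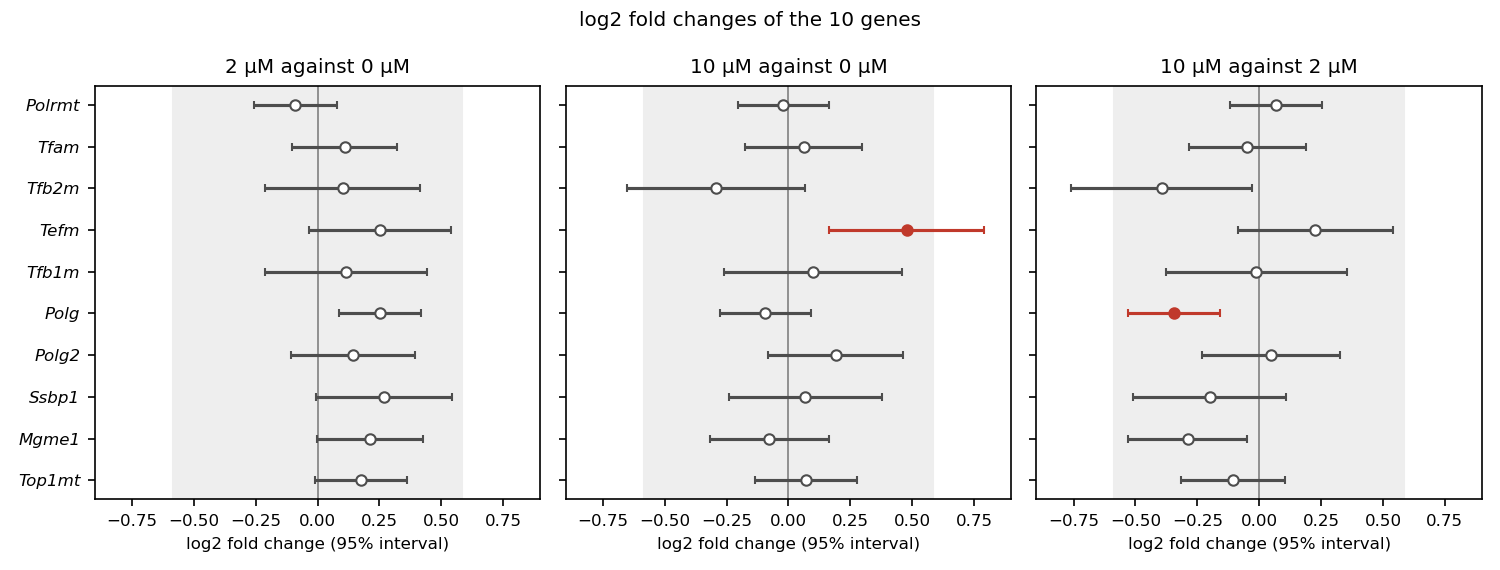
Log2 fold change (horizontal axis, with its 95% interval) of the 10 genes at 2 µM against 0 µM, 10 µM against 0 µM and 10 µM against 2 µM, where the grey band marks changes of under 1.5-fold and filled red points passed the test (adjusted p under 0.05). Only Tefm at 10 µM against 0 µM (0.48) and Polg at 10 µM against 2 µM (-0.34) are filled, and at 2 µM against 0 µM all 10 intervals lie inside the band.

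Levels of different genes were compared as CPM per kilobase of annotated exon, with all exons of the basic GENCODE annotation joined, which gives too low a level where long exons are little used. At 0 µM the order was Tefm (16.1 ± 2.66, SD, n = 3), Tfam (12.1 ± 1.72), Polg (9.96 ± 0.553), Top1mt (8.21 ± 0.361), Polrmt (7.99 ± 0.131), Mgme1 (6.41 ± 0.783), Ssbp1 (5.66 ± 0.423), Tfb1m (5.00 ± 0.838), Polg2 (4.58 ± 0.165) and Tfb2m (3.28 ± 0.187). Neighbours whose libraries did not overlap were Polg and Top1mt, Polrmt and Mgme1, and Polg2 and Tfb2m, and the other neighbours overlapped. By this measure the elongation factor and the packaging factor headed the order and the initiation partner Tfb2m closed it. The level of Tfb2m may be too low for another reason, since 29.6% of its 75-base stretches recur in Gm1818. Its last place and its gap to Polg2 are therefore uncertain. The first 7 places were the same at all 3 doses, as was the last. The order rests on the joined exon lengths, which were 1309 bases for Tefm and 5577 for Ssbp1. Before division by length, Ssbp1 was above Tefm at 0 µM (means of 31.6 and 21.1 CPM).

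Ratios of partners within a library do not depend on how libraries are scaled. For the subunits of the polymerase, the log2 ratio of Polg2 to Polg counts (0.5 added to each) was -3.64, -3.40 and -3.45 in the 0 µM libraries, -3.47, -3.58 and -3.72 in those with 2 µM, and -3.09 and -3.31 in the pair with 10 µM. Both 10 µM values were above the untreated ones, by 0.29 on average (exact permutation test, two-sided, p = 0.2, the smallest that 3 against 2 libraries allow, adjusted p = 0.6 over 6 tests). For the related methyltransferases, the ratio of Tfb2m to Tfb1m was lower by 0.36 at 10 µM (exact permutation p = 0.4), a difference of the order of its pooled SD of 0.256. The ratio of Tfam to Polrmt was 0.20 higher at 2 µM (exact permutation p = 0.2, with 0.1 the smallest possible) and 0.08 higher at 10 µM (exact permutation p = 0.8). None of the 6 differences passed, and with this design none could have. The smallest p it allows is 0.1 at 2 µM and 0.2 at 10 µM, so these tests cannot show whether a ratio changed.

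Set against the mtDNA mRNAs in the same library, the counts of Polrmt, Tfam and Polg rose with dose. Any nuclear mRNA that kept its level would do so, because the summed mtDNA mRNAs fell to 53.1% (2 µM) and 28.8% (10 µM) of the untreated mean. The rise is therefore not particular to these genes. Per 1000 counts on the 13 mtDNA mRNAs there were 2.13 ± 0.103 (SD, n = 3) Polrmt counts at 0 µM, 3.795 ± 0.455 (n = 3) at 2 µM and 7.40 ± 1.33 (n = 2) at 10 µM. For Tfam the figures were 3.78 ± 0.664, 7.66 ± 0.801 and 13.9 ± 3.41, and for Polg 5.54 ± 0.5, 12.5 ± 1.69 and 18.5 ± 5.34. The 3 doses did not overlap for any of these genes, although the means of the 3 genes themselves were at 93.6% to 119.0% of their untreated level. The shared denominator did not overlap either, at 13580 to 14410, 6560 to 7997 and 3503 to 4620 CPM at 0, 2 and 10 µM. The share of all nuclear genes without overlap in this ratio was not computed. All counts on mtDNA features, ribosomal RNA included, made up 13.7% ± 0.628 of the library at 0 µM, 7.97% ± 0.488 at 2 µM and 5.82% ± 0.701 at 10 µM.

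Polrmt and Tfam were most like genes of other processes in their pattern over the 8 libraries, measured as the root mean square difference of centred log2 CPM. For Polrmt these were Irf2bp2 (0.0167), Galnt2 (0.0286) and Clk1 (0.0286), where the median over all nuclear genes tested was 0.207. For Tfam they were Pop4 (0.0251), Crnkl1 (0.0286) and Rps3a1 (0.0304), with a median of 0.235. As the smallest distances over all nuclear genes tested, these values are low by choice and do not by themselves mark a shared process.

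Beyond the 10 members, 44 other nuclear genes, a list also drawn up with earlier results known, covered mtDNA replication, termination, RNA processing, nucleoid structure and nucleotide supply, of which 43 were tested, Tymp having too few counts. At 2 µM, 2 of the 43 were higher and 0 lower (4.65% against the 4.16% of all genes, median log2 fold change 0.09 against -0.01). These were Elac2 (0.35, SE 0.0758, adjusted p = 0.0304), which cuts the 3′ ends of mitochondrial tRNAs, and Atad3a (0.32, SE 0.066, adjusted p = 0.0271), a membrane ATPase associated with nucleoids. Library totals alone gave 9 genes, a scaling with which 1364 of all genes tested were called, against 595 in the main fit. The fit without 0 µM replicate 1 also gave 9. Leaving out 0 µM replicate 2 or 3, or 2 µM replicate 1 or 2, gave 0, and leaving out 2 µM replicate 3 gave 1.

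At 10 µM, 6 of the 43 were higher and 4 lower (23.3%, against the 13.9% of all genes, median log2 fold change 0.05 against 0.02). In the replication group Primpol, a primase-polymerase, rose while 3 other enzymes fell. Primpol was at 16.5, 19.7 and 16.5 CPM at 0 µM, 14.9, 15.5 and 15.4 CPM at 2 µM and 30.6 and 28.8 CPM at 10 µM, so that the 10 µM libraries were above and the 2 µM libraries below all the untreated ones. It rose at 10 µM (log2 fold change 0.75, SE 0.102, adjusted p = 0.00081), while the estimate of -0.20 at 2 µM (SE 0.0981, adjusted p = 0.257) did not pass. The flap-removing nucleases Dna2 (28.0, 28.3 and 27.0 CPM at 0 µM, 17.7 and 19.3 CPM at 10 µM) and Fen1 (106.2, 87.6 and 92.4 CPM at 0 µM, 65.0 and 69.5 CPM at 10 µM) fell by 0.58 (SE 0.0999, adjusted p = 0.0036) and by 0.50 (SE 0.0967, adjusted p = 0.00667) on the log2 scale, and the decatenating topoisomerase Top3a fell by 0.31 (SE 0.0876, adjusted p = 0.0388). The call of Top3a was lost in 10 of 16 alternatives, among them DESeq2 (adjusted p = 0.061), the replicate block (0.0624), and library totals, with which the log2 fold change was -0.093 (0.444). These enzymes also work in the nucleus. Peo1, the symbol in the deposited counts for the mtDNA helicase Twinkle, was among the 6 of 10 that did not pass (-0.07, SE 0.107, adjusted p = 0.69).

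Of the 7 nucleotide supply genes tested, 3 rose at 10 µM and none fell, where 6.81% of all genes were higher and 7.11% lower, and for 2 of the 3, Dguok and Tk2, the call was lost in 12 of 16 alternatives. The p53-induced ribonucleotide reductase subunit Rrm2b went from 18.3, 18.2 and 17.9 CPM at 0 µM to 27.9 and 31.2 CPM at 10 µM (log2 fold change 0.70, SE 0.0971, adjusted p = 0.000926). The mitochondrial deoxynucleoside kinases Dguok (0.36, SE 0.106, adjusted p = 0.0441) and Tk2 (0.35, SE 0.0966, adjusted p = 0.0345) rose as well. Among the 18 RNA processing genes 3 passed (16.7%, near the 13.9% of all genes). Pnpt1 (0.34, adjusted p = 0.027), a subunit of the RNA-degrading complex, and Lrpprc (0.29, adjusted p = 0.0199), which stabilises mitochondrial mRNAs, rose, while Fastkd5, which acts on mRNAs that lack flanking tRNAs, fell by 0.47 (adjusted p = 0.00979). No gene of the termination and nucleoid groups passed at 10 µM. Primpol and Rrm2b were also DEGs. Dna2 lay just under the 1.5-fold threshold with edgeR and met both DEG thresholds with DESeq2 (-0.62, adjusted p = 0.000206). Of the 16 alternatives, Primpol, Rrm2b, Dna2 and Fen1 passed in 16, Fastkd5 in 14, Lrpprc in 10, Pnpt1 in 8, Top3a in 6, and Dguok and Tk2 in 4 each. The count of 10 listed genes became 5 without 0 µM replicate 2 or 3 or either 10 µM library, and 6 without 2 µM replicate 2.

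From 2 to 10 µM, 15 of the 43 passed, 7 higher and 8 lower (34.9%, against the 23.4% of all genes). They included Primpol (0.96, SE 0.105) and Rrm2b (0.69, SE 0.0984) among those higher and Fen1 (-0.75, SE 0.0973), Dna2 (-0.74, SE 0.101) and Fastkd5 (-0.69, SE 0.098) among those lower. Elac2 and Atad3a, named for their rise at 2 µM, were lower by 0.33 and by 0.27 from 2 to 10 µM. This comparison uses the same 2 µM libraries as that rise, so the rise and the fall are not independent. At 10 µM against 0 µM their log2 fold changes were 0.03 and 0.05. Without 2 µM replicate 2 or 10 µM replicate 2 the count was 8.

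**Figure D2:**
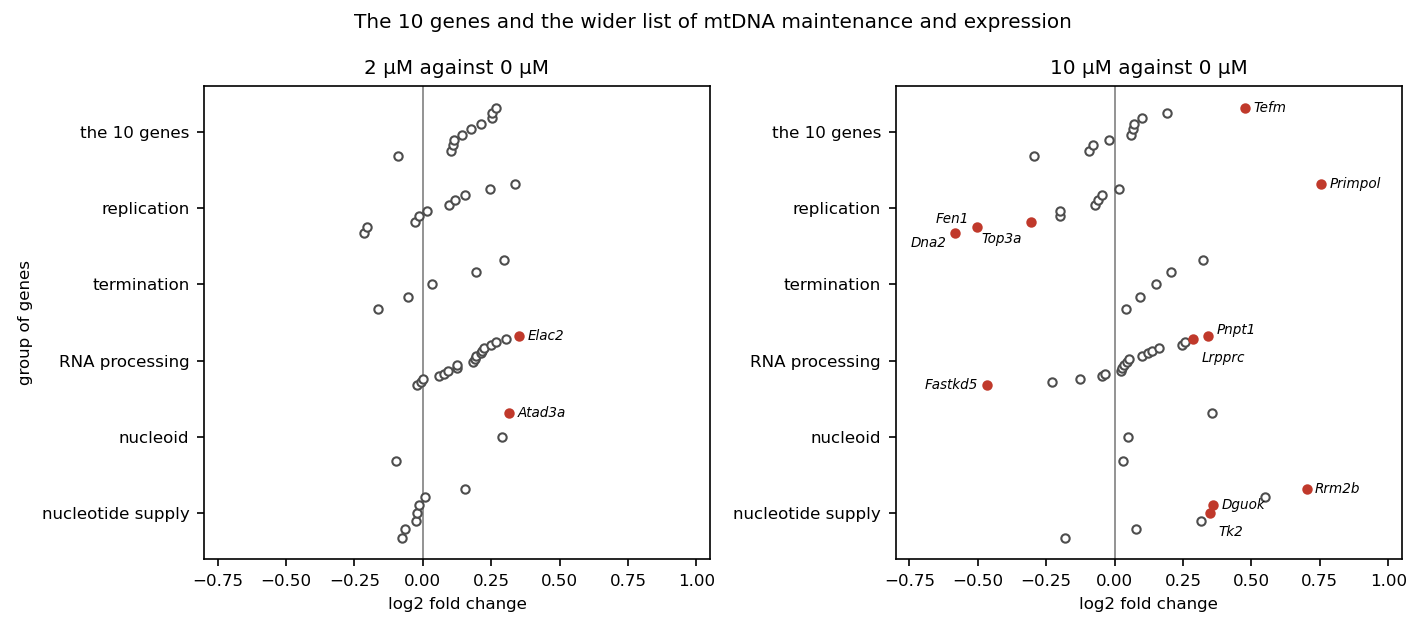
Log2 fold change (horizontal axis) at 2 µM and 10 µM against 0 µM of the 10 genes and of the 43 tested genes of the wider list by group (vertical axis), each point a gene, with filled red points and names for genes with an adjusted p under 0.05. At 2 µM Elac2 and Atad3a are filled, and at 10 µM Tefm and 10 genes of the wider list, from Dna2 (-0.58) to Primpol (0.75).

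The promoters of the members were searched because RHPS4 binds guanine-rich sequence and because the members are often described as targets of the factors NRF1 and GABPA. RefSeq promoter windows (GRCm38.p6, 250 bases before to 50 after the start) matched 9 of the 10 members. The ETS core bound by GABPA, CCGGAAG, was found on either strand in 6 of the 9, compared with 8.86% of 32851 such windows. Those windows were not matched to the members for GC content. The core was the most frequent in the members of the 3 motifs searched. It is shown here in capitals, with 11 bases on each side up to the start, on the strand that reads it.
Polrmt: ttctgcgactgCCGGAAGcgctcttaggg
Tfam: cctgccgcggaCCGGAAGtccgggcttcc
Tefm: agcacacgaaaCCGGAAGtt
Polg: gaggacctcacCCGGAAGtccctctgcac
Polg2: agaccacgcccCCGGAAGagcgtcacccg
Ssbp1: ggctccgtgcgCCGGAAGcgagccgctgg

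These stretches lie at chr10:79746607-79746635 (Polrmt, plus strand), chr10:71238074-71238102 (Tfam, minus strand), chr11:80142154-80142173 (Tefm, minus strand), chr7:79466294-79466322 (Polg, minus strand), chr11:106779549-106779577 (Polg2, plus strand) and chr6:40471410-40471438 (Ssbp1, plus strand). In each the core ended 3 to 41 bases before the RefSeq start, which for Tfam, Tefm, Polg and Ssbp1 lies inside the gene as GENCODE draws it. Both members that passed a test, Tefm and Polg, hold the core, and so do 4 that did not.

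A G-quadruplex-type stretch, 4 runs of GGG with gaps of 1 to 7 bases on either strand, was found in 1 of the 9 windows, that of Tfam, compared with 18.6% of all windows. It is shown because it is the one stretch of this kind in the members' windows. It lies at chr10:71238147-71238171 on the plus strand, opposite to the gene, 103 to 127 bases before the start, and does not overlap the ETS core. All its bases are in capitals.
Tfam: GGGCGGGGCCGGGCCGAGGAGGGGG
The NRF1 core GCGCATGCG was found in 1 of the 9, Tfb2m, after its start, compared with 1.75% of all windows. A match is a description of these letters and says nothing of whether a factor or the ligand bound there.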

How the data were processed

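Counts per gene were deposited for 8 libraries by the authors as whole numbers without normalization. Per the labels and the study's methods they came from stranded total RNA libraries read as 75 bp pairs, checked with FastQC, trimmed (Trim Galore, cutadapt), aligned to mm10 with STAR 2.5.2a and counted as uniquely mapped fragments with featureCounts. The annotation and strand setting are not given in the sources used here. Fragments shared between gene copies are thereby lost.

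All libraries went into 1 quasi-likelihood fit by edgeR 4.0.16 in R 4.3.3 (filterByExpr, TMM, glmQLFit, glmQLFTest, Benjamini-Hochberg adjustment over 14296 genes) with dose as the only factor. The SE was the log2 fold change divided by the square root of F. Ratios used exact permutation tests. DESeq2 1.42.0 was an alternative, with other scalings, filters, samples and a replicate block. The fits were tested on simulated data. Gene models were GENCODE vM21 (GRCm38). All 10 members are named, as are listed pathway genes with an adjusted p under 0.05 against 0 µM and the 3 genes most like Polrmt and Tfam. Those named from 2 to 10 µM were chosen after their values were seen. The members and lists were chosen with earlier results of these data known. Python 3.11.15 with pandas 2.3.3 served for sequences and plots.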

Additional observations from a re-analysis of the deposited data

How the results depend on the processing

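Of 480 fold changes of members under alternatives, 443 kept direction and side of the threshold, 14 lost a call, 6 gained one and 17 changed sign. All 14 losses were of the calls of Tefm at 10 µM against 0 µM and of Polg from 2 to 10 µM. These were the only member calls in the main fit, so 480 is not the base for the losses. The count of members past the test at 10 µM against 0 µM, 1, was 0 with RLE scaling, no filter, DESeq2, only the 2 doses, the replicate block and the study's DEG thresholds, and 3 with library totals (Tefm, Polg2 and Top1mt), and ran from 0 to 1 on leaving out a library. At 2 µM it was 1 with totals (Polg), and 0 to 2 on leaving out a library, and from 2 to 10 µM 0 with totals and with the DEG thresholds, and 0 to 2. Of the 14296 genes tested, totals called 1364 at 2 µM, 4081 at 10 µM and 3599 from 2 to 10 µM. The main fit called 595, 1991 and 3346. For the wider list, totals gave 9 genes at 2 µM and 21 at 10 µM. At 10 µM no filter gave 6 and only 2 doses 5. The DEG thresholds gave 0 at 2 µM, 2 at 10 µM and 5 from 2 to 10 µM. Leaving out a library gave 0 to 9, 5 to 10 and 8 to 19. With 1 library left at 10 µM, it was assumed to vary like the others.

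Library totals shifted the median of all genes by 0.21 at 10 µM against 0 µM and 0.13 from 2 to 10 µM, and made higher genes 77.9% of those called at 2 µM (36.3% with TMM), 91.9% at 10 µM (48.9%, or 32.6% with DESeq2) and 78.3% from 2 to 10 µM (49.2%, or 36.5% with DESeq2). With totals, Polrmt (0.19), Polg (0.12) and Mgme1 (0.14) turned positive at 10 µM against 0 µM, as did Tfam (0.087), Tfb1m (0.12) and Top1mt (0.029) from 2 to 10 µM. Leaving out a library turned Tfb2m at 2 µM (-0.085 to 0.20), Tfam (-0.045 to 0.14), Tfb1m (-0.022 to 0.18) and Ssbp1 (-0.20 to 0.24) at 10 µM, and Tfb1m (-0.13 to 0.091) and Polg2 (-0.046 to 0.0895) from 2 to 10 µM. No sign change passed the test. The causes were not tested. Without the 2 mitochondrial rRNAs the mtDNA share at 10 µM was 0.334 of that at 0 µM, compared with 0.425.

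Between 0 and 2 µM the deviations of same-numbered libraries had correlations of 0.20, 0.08 and 0.16, above those of libraries with different numbers (-0.15 to 0.06). Between 0 and 10 µM they were -0.15 and -0.10. The 2 libraries at 10 µM deviate as mirror images, so these correlations say little. The values do not settle whether the numbers mark pairs, and the main fit did not take them as such. With the replicate block 0 members passed at 2 µM, 0 at 10 µM and 1 from 2 to 10 µM, the ratios moved by less than their spread, and Ssbp1 at 10 µM turned to -0.026. Low counts limit Tfb1m, Tfb2m and Polg2 most.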
